A study of Mus musculus with 27 samples.

Results

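The genes described here encode the unfolded protein response and the folding machinery of the endoplasmic reticulum (ER), measured in islets of mice carrying a switchable Myc protein. They were chosen by gene symbol from a fixed list of sensors, chaperones, disulfide enzymes, translocation subunits and degradation factors, together with every symbol starting with Pdia, Sec61, Sec62, Sec63 or Derl. The array measured 40 such genes out of 8251 genes with a symbol of their own, through 61 probe sets, and a gene with more than 1 probe set is represented by the one with the highest mean. Ern1, Syvn1 and Sdf2l1 were not measured under this rule.

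All mice carried 2 transgenes driven by an insulin promoter: MycER, a Myc fusion protein that is active only when a tamoxifen compound is bound, and BclXL, a survival protein. The untreated animals carried both transgenes as well, so every comparison concerns the drug in BclXL-protected cells, and there was no group without the transgenes or with the drug alone. Islets were collected by laser capture from untreated mice, from mice 2, 4, 8 or 24 h after an injection of 4-hydroxytamoxifen, from mice given tamoxifen daily for 21 days, and from mice 2, 4 or 6 days after the last dose of such a course. Sample names of the 21-day group say 4OHT where the treatment note says tamoxifen. Each of the 9 groups held 3 arrays, 27 in all, hybridised with RNA that had been linearly amplified. The labels do not say that the 3 samples of a group came from separate mice, so a p-value here reflects the spread among these samples alone. The study compared treated with untreated islets, and sustained activation with regression.

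The ER folds proteins bound for secretion, and in beta cells, which make large amounts of proinsulin, it carries a heavy load. When unfolded proteins accumulate, 3 membrane sensors respond: IRE1 splices the messenger of Xbp1, ATF6 is cleaved to release a transcription factor, and PERK (Eif2ak3) slows translation while favouring that of Atf4, which in turn raises Ddit3 (CHOP), Trib3 and Ppp1r15a. XBP1 and ATF6 raise genes for chaperones, for disulfide-forming enzymes and for the ER-associated degradation route, which returns misfolded proteins to the cytosol. Splicing, cleavage and phosphorylation were not measured by these probe sets, which report messenger level only.

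Part of this control is written in the promoters, and the sequences are shown here because genes that carry the same element can be set against their levels below. The ER stress response element (ERSE) was searched as CCAAT, any 9 bases and CCACG, on both strands, from 250 bases before to 50 after each RefSeq gene start (GRCm38.p6). Of the 40 genes, 34 had such a window, and 8 of the 34 (23.5%) held a match, against 12 of 6576 array genes with a window (0.182%, these 8 included) and 39 of 32851 windows in all (0.119%). The 8 genes were Hspa5, Hsp90b1 (2 matches), Creld2, Pdia6, Dnajc3, Ero1b, Canx and Calr. Each match is printed with 20 bases on either side, read along the gene's own strand, and the capitals mark the element; where it lies on the other strand, the capitals read CGTGG first and ATTGG last.

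Hspa5: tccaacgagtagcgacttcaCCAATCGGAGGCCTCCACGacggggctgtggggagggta
Creld2: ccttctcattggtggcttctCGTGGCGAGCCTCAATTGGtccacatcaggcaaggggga
Pdia6: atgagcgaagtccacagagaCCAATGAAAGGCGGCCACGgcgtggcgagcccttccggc
Dnajc3: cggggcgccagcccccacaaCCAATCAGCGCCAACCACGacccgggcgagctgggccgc
Hsp90b1, nearer match: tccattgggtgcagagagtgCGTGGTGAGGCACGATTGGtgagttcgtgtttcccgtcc
Hsp90b1, farther match: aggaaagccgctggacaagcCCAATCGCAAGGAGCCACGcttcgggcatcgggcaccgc
Ero1b: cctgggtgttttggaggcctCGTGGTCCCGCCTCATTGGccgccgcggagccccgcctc
Canx: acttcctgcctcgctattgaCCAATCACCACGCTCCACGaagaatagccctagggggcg
Calr: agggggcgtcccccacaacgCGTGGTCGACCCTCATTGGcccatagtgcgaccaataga

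The Hspa5 stretch is chr2:34772005-34772063 on the + strand, with the element 65 to 47 bases before the gene start. The Creld2 stretch is chr15:88819500-88819558 (+), that of Pdia6 chr12:17266471-17266529 (+), that of Dnajc3 chr14:118937807-118937865 (+) and that of Ero1b chr13:12565662-12565720 (+). The Hsp90b1 stretches are chr10:86705513-86705571 and chr10:86705618-86705676 (-), that of Canx is chr11:50325780-50325838 (-) and that of Calr chr8:84847055-84847113 (-). All of these elements lie in the promoter, upstream of the gene start. A shorter relative, ERSE-II (ATTGG, any base, CCACG), was found in Dnajb11 and Herpud1, 2 of 34 windows (5.88%) against 0.0365% of all windows. The element TTGCATCA, to which C/EBP and ATF proteins can bind together, was found in Herpud1 and Nupr1 (5.88% against 0.895%). One of each is shown because Herpud1 and Nupr1 carry results below, again with the element in capitals.

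Herpud1, ERSE-II: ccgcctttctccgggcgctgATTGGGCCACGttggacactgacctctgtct
Nupr1, C/EBP-ATF element: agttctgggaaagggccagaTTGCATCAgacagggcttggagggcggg

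The Herpud1 stretch is chr8:94386357-94386407 (+) and the Nupr1 stretch chr7:126625553-126625600 (-). The element TGACGTGG was found in Vcp only (2.94% against 0.676%), the E-box CACGTG, the letters to which Myc can bind, in 5 of 34 windows (14.7%, against 11.5% of array genes and 7.15% of all windows), and CCACG, which ERSE contains, in 26 of 34 (76.5%, against 48.8% and 32.8%). Matches describe letters in these windows and were not tested for binding.

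Some arrays stood apart, and for some of the calls and counts that they decide, values without them are given. Values are the deposited log2 levels, in which 1 unit is a 2-fold difference. The median probe set level was 6.91 to 7.01 per array, with correlations of 0.957 to 0.992 within groups. Ins2 was between 13.35 and 13.91 and Iapp between 11.70 and 12.88 on every array, so these 2 beta cell transcripts were abundant throughout. The mean of 6 beta cell genes was 10.67 in untreated islets and 9.83 at 21 days. The mean of 15 acinar enzyme genes, which mark the exocrine cells around an islet, was 10.81 on untreated replicate 1 against 8.19 and 8.75 on the others, 11.33 to 11.90 at 24 h and 7.37 to 7.98 at 21 days. The mean of 36 leukocyte genes was raised on 5 arrays: the first and the third of the 2 h group, the third of the 8 h group, the second of 2 days off the drug and the first of 6 days off. Untreated replicate 1 also had the lowest Hspa5, Hsp90b1 and Ssr3 and the highest Nupr1 of its group. In such pooled tissue, fewer cells of a type and less RNA per cell cannot be told apart.

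**Figure D1:**
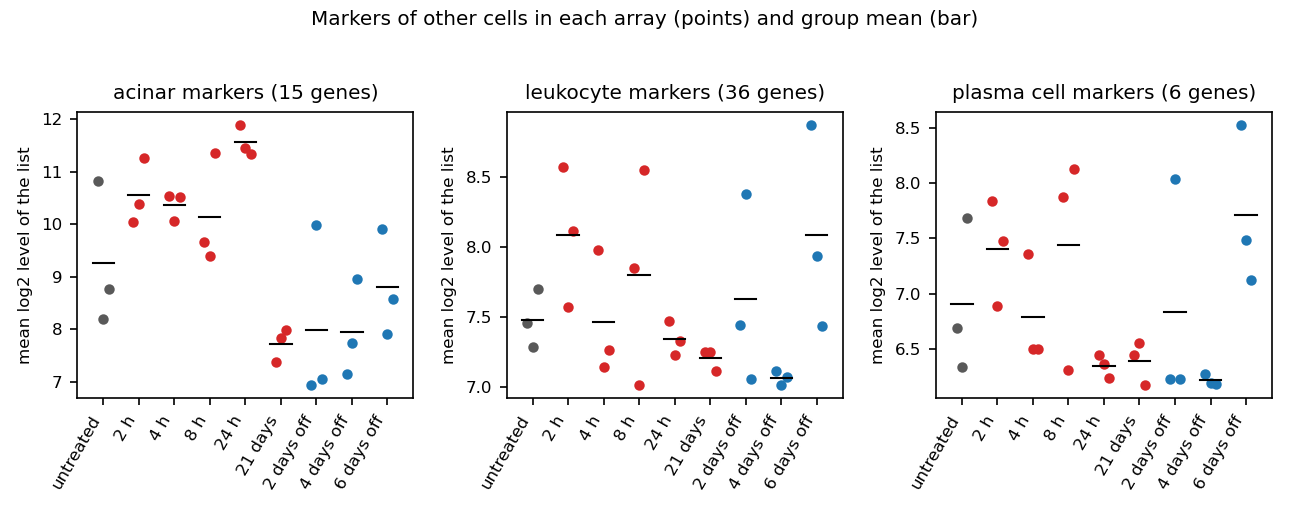
Mean log2 level of 15 acinar, 36 leukocyte and 6 plasma cell genes on each of the 27 arrays, by group; each point is 1 array and each bar a group mean. The acinar mean is highest at 24 h (11.33 to 11.90) and low at 21 days (7.37 to 7.98), while untreated replicate 1 (10.81) lies above the other untreated arrays.

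Few of these genes were called against untreated islets on the first day after an injection. At 21 days of drug 10 of the 40 were called lower than untreated, against 8.46% of all genes. At 4 days off the drug 13 were called higher than at 21 days, against 4.52% of all genes, and not all of them were among the 10. Without replicate 1 of 4 days off, 0 of 40 were called at that step. Of the 40 genes, 26 were called in at least 1 of the 10 comparisons of the design, a call being an adjusted p under 0.05 from limma with Benjamini-Hochberg adjustment over all probe sets; 35.9% of all genes were called in at least 1. The other 14 were Atf4, Calr, Canx, Derl1, Dnajb9, Eif2ak3, Ero1a, Hyou1, Pdia3, Pdia5, Sec62, Sec63, Ssr1 and Ssr4. The means of 8 genes (Calr, Ssr4, Edem1, Hyou1, Sec63, Derl2, Trib3 and Eif2ak3), which ranged from 4.36 to 6.64, lay below the brightest of 19 bacterial and yeast control probe sets (3.58 to 7.14). Their levels are thus within the range that unmatched probes give, though above the control median of 4.05.

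**Figure D2:**
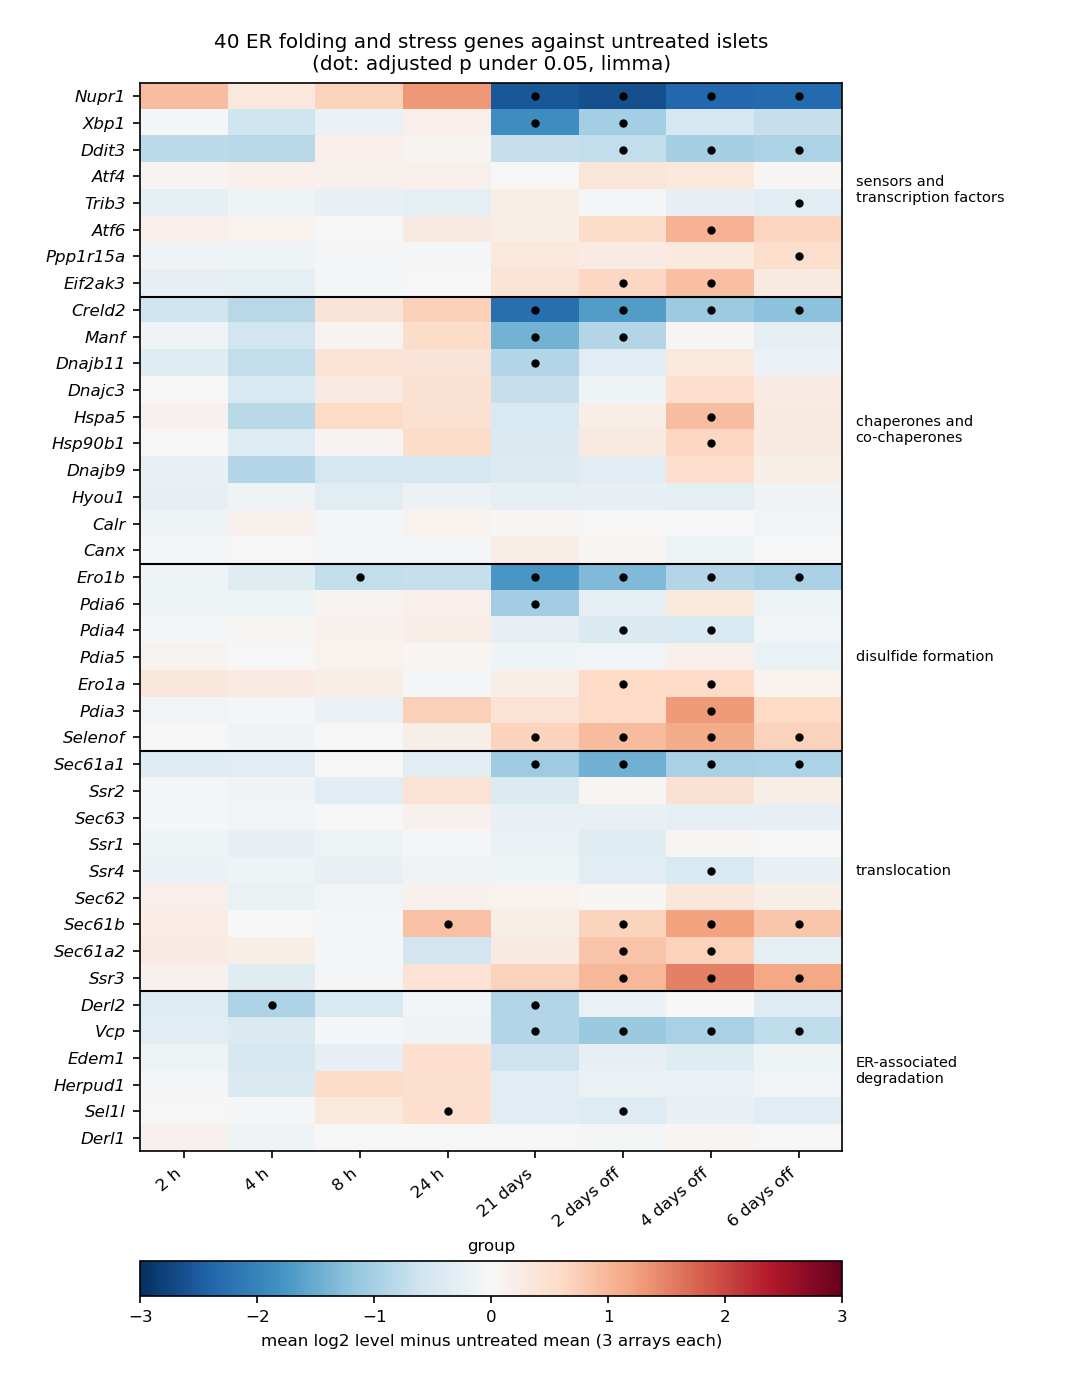
Group mean minus untreated mean (log2) for the 40 genes, ordered by role, in the 8 treated groups; a dot marks an adjusted p under 0.05 against untreated. Creld2, Xbp1 and Ero1b are lowest at 21 days (-2.27, -1.86 and -1.74), Nupr1 is at -2.54 there, and the Ssr3, Sec61b and Selenof rows are above 0 at 4 days off (1.50, 1.21 and 1.11).

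The first hours after a single injection asked what acute MycER activation does to these genes. At 2 h, 0 of 40 genes were called by limma (0 higher and 4 lower at an unadjusted p under 0.05, against 12.7% of all genes), where 0.485% of all genes were called (0.412% higher and 0.0727% lower); the median change was -0.06, the same as over all genes. At 4 h the dimly detected Derl2, a channel component of ER-associated degradation, was the single gene called, where 0.909% of all genes were (0.57% higher and 0.339% lower). Derl2 was 6.59, 6.68 and 6.72 in untreated islets and 5.98, 5.54 and 5.72 at 4 h. The groups did not overlap, and it fell by 0.92 (SE 0.17, adjusted p = 0.00963). Of the 40 genes, 31 lay below their untreated mean at 4 h, with a median change of -0.15 against -0.02 over all genes, and 10 of them had an unadjusted p under 0.05, where 9.68% of all genes did.

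At 8 h Ero1b, the beta cell enriched oxidase that recharges protein disulfide isomerases, was called lower, the only one of the 40 against 1.91% of all genes (1.15% higher and 0.764% lower). Ero1b was 11.89, 12.00 and 12.33 in untreated islets and 11.10, 11.61 and 11.29 at 8 h, all 3 below every untreated array. It fell by 0.74 (SE 0.19, adjusted p = 0.0458). At 24 h Sec61b, a subunit of the translocation channel, and Sel1l, the scaffold of an ER ubiquitin ligase, rose, 2 of 40 against 1.58% of all genes (1.37% higher and 0.206% lower). Sec61b went from 7.13, 7.61 and 7.31 to 7.98, 8.42 and 8.26, a rise of 0.87 (SE 0.20, adjusted p = 0.0242). Sel1l went from 8.25, 8.10 and 8.38 to 8.84, 8.69 and 8.71, a rise of 0.50 (SE 0.12, adjusted p = 0.0438). In both, the 24 h arrays lay above all untreated arrays. These early calls were fragile: Sel1l was lost in all 6 fits without 1 array, Ero1b at 8 h in 5 and Sec61b in 4, and Derl2 at 4 h without replicate 2 or 3 of that time. With acinar and leukocyte means as covariates, 0 genes were called at 8 h and 0 at 24 h, with Ero1b at -0.65 (adjusted p = 0.0527), Sec61b at 0.82 (adjusted p = 0.206) and Sel1l at 0.42 (adjusted p = 0.357).

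More genes were called between 4 h and the later times, comparisons added after the data had been seen. Creld2, an ER chaperone-like protein with an ERSE, was 7.94, 7.63 and 8.05 at 4 h, 9.37, 9.18 and 8.68 at 8 h and 9.25, 9.52 and 9.46 at 24 h. Herpud1, an ER membrane organiser of degradation with an ERSE-II, was 9.04, 8.89 and 9.17 at 4 h, 10.24, 10.03 and 9.83 at 8 h and 10.08, 9.81 and 9.96 at 24 h. In both genes every array at 8 h or 24 h lay above every array at 4 h. They were the only 2 of 8251 genes (0.0242%) called between 8 h and 4 h, at 1.20 (SE 0.20, adjusted p = 0.0372) for Creld2 and 1.0 (SE 0.15, adjusted p = 0.0249) for Herpud1; each call held in 1 of 6 fits without 1 array, and neither with the Gapdh covariate. With a replicate block Herpud1 alone was called.

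Between 24 h and 4 h, 11 of 40 genes rose and 0 fell, where 3.25% of all genes were called (2.27% higher and 0.982% lower). They included 5 of 10 chaperones and co-chaperones (Creld2, Hspa5, Manf, Dnajb11 and Hsp90b1) and 4 of 6 degradation genes (Herpud1, Edem1, Derl2 and Sel1l), with Ddit3 and Sec61b. Creld2 rose by 1.54 (SE 0.20, adjusted p = 0.000337) and Herpud1 by 0.92 (SE 0.15, adjusted p = 0.00213), and these were the calls that held in all 6 fits without 1 array. Hspa5, the chaperone BiP that also holds the stress sensors inactive, was 9.86, 9.16 and 10.04 at 4 h and 11.07, 10.80 and 11.04 at 24 h. The 2 sets of Hspa5 values did not overlap and differed by 1.28 (SE 0.30, adjusted p = 0.0234), or 1.44 (adjusted p = 0.0184) with the acinar and leukocyte covariates. The acinar mean was 10.05 to 10.53 at 4 h and 11.33 to 11.90 at 24 h; with it and the leukocyte mean as covariates 7 genes were called. The lost calls had changes of 0.87 (Ddit3), 0.96 (Dnajb11), 1.0 (Manf) and 0.51 (Sel1l) in that fit, against 0.91, 1.11, 1.12 and 0.56 without the covariates. Leaving out 1 array left between 2 and 9 genes called.

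**Figure D3:**
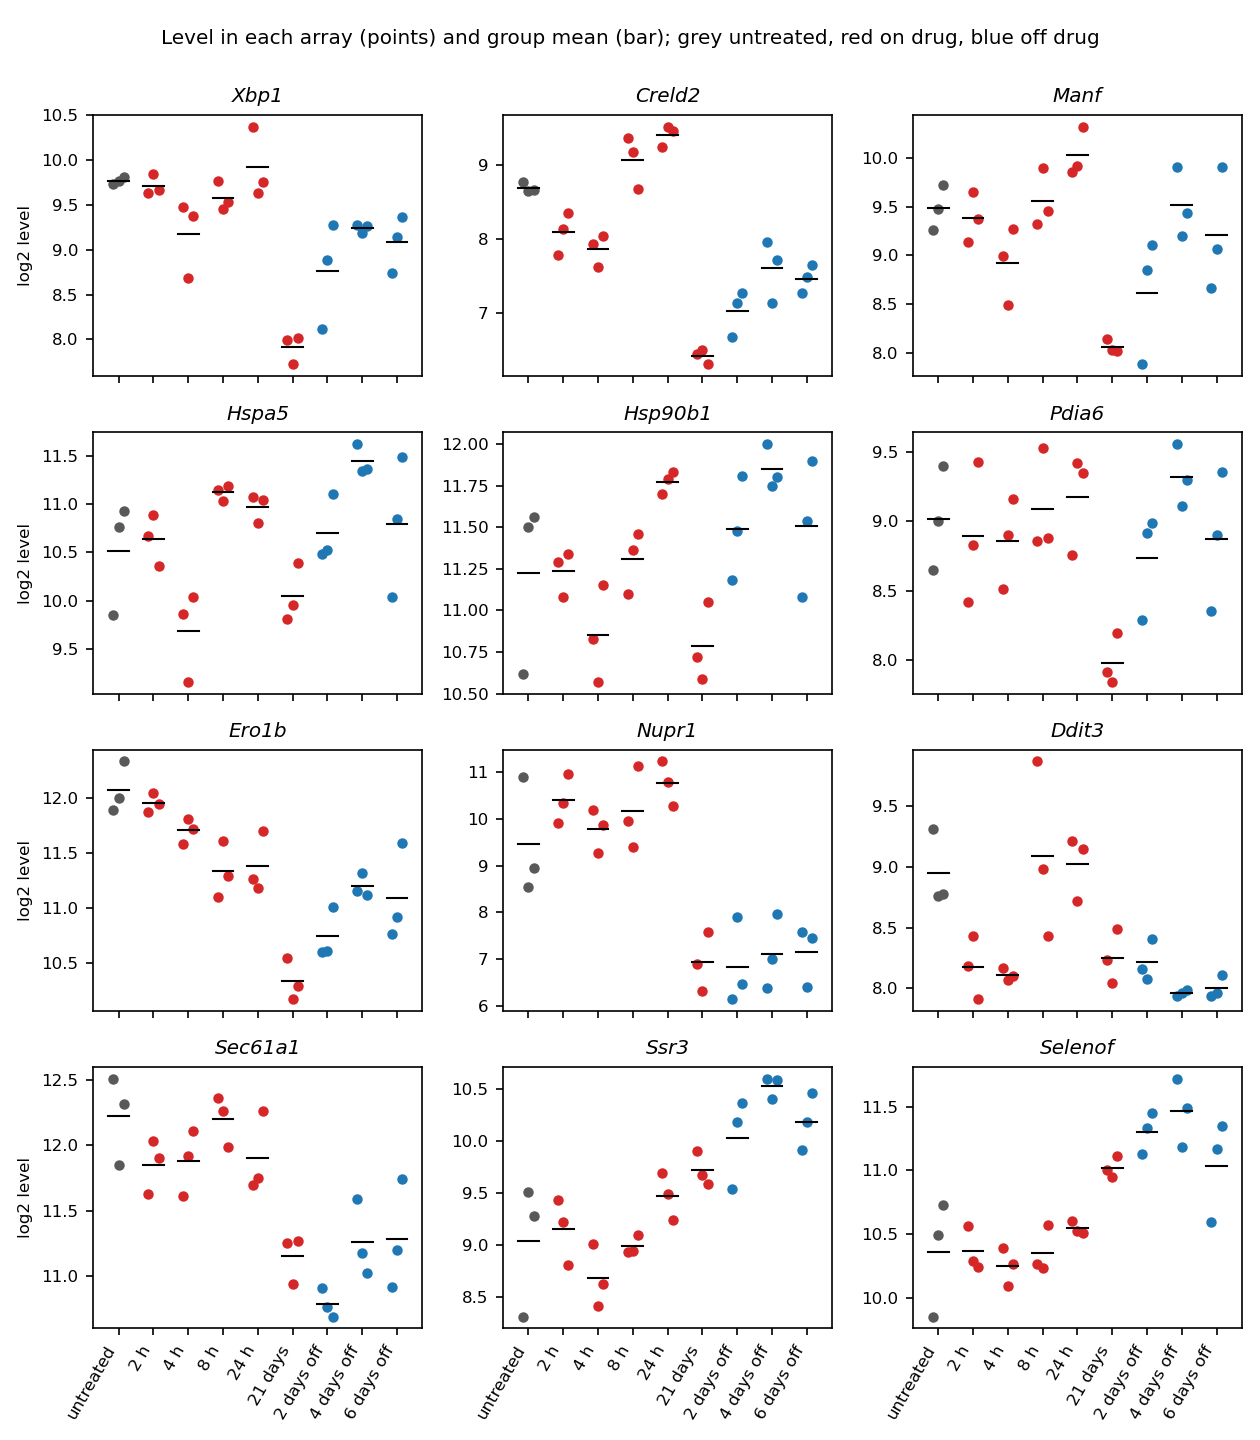
Log2 level of 12 genes on every array by group, with a bar at each group mean and an axis of its own per gene; grey is untreated, red on drug and blue off drug. Xbp1, Creld2 and Manf are lowest at 21 days with tight triplicates. The means of Hspa5 and Hsp90b1 dip at 4 h and at 21 days, though neither gene was called against untreated at these times. Nupr1 stays between 6.14 and 7.96 at 21 days and on all arrays off the drug.

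After 21 days of daily tamoxifen, 10 of the 40 genes were lower than in untreated islets and 1 was higher, led by the regulator Nupr1, Creld2, the transcription factor Xbp1 and Ero1b. That is 27.5% of the genes against 16.4% of all genes called (8.46% lower and 7.95% higher). The median over the 40 genes was -0.26 against 0.03 over all genes, with 26 genes below 0. By role, 2 of 8 sensors and transcription factors fell, as did 3 of 10 chaperones and co-chaperones, 2 of 7 disulfide genes, 1 of 9 translocation genes and 2 of 6 degradation genes. The gene that rose, Selenof, belongs to the disulfide group.

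Among the sensors and transcription factors, Xbp1 was 9.73, 9.77 and 9.81 in untreated islets and 7.99, 7.72 and 8.02 at 21 days. All 21-day arrays lay far below the tight untreated triplicate. Xbp1 fell by 1.86 (SE 0.24, adjusted p = 5.63e-05), to a level 3.63-fold lower. Nupr1, a small stress-induced chromatin protein, was 10.90, 8.55 and 8.95 in untreated islets and 6.89, 6.32 and 7.58 at 21 days. It fell by 2.54 (SE 0.59, adjusted p = 0.00601), and by 1.82 (adjusted p = 0.0452) without untreated replicate 1, which was its highest untreated array and the one richest in acinar transcripts. With the covariates it fell by 1.39 (adjusted p = 0.00322). Ddit3, the death-associated factor CHOP, was 9.31, 8.76 and 8.78 against 8.23, 8.04 and 8.49, a difference of -0.70 that missed the threshold (adjusted p = 0.0527).

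The messengers of Atf4, Atf6 and Eif2ak3 were not called at 21 days, and the activity of their proteins was not measured. Atf4, whose protein is set mainly by translation, was 10.59, 10.76 and 10.56 in untreated islets and 10.52, 10.53 and 10.90 at 21 days, a difference of 0.01 (SE 0.13). Atf6 was 7.42, 7.59 and 7.98 against 7.89, 7.56 and 8.14, a difference of 0.20 (SE 0.25). Eif2ak3, the PERK kinase, was 6.52, 6.23 and 6.62 against 6.65, 7.04 and 6.93, a difference of 0.42 (SE 0.16, adjusted p = 0.0807). In Atf4 and Atf6 the groups overlapped, whereas all 21-day arrays of Eif2ak3 lay above the untreated ones.

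Among chaperones and co-chaperones, Creld2 was 8.78, 8.65 and 8.66 in untreated islets and 6.45, 6.51 and 6.31 at 21 days. It fell by 2.27 (SE 0.20, adjusted p = 6.11e-07), 4.83-fold, the smallest adjusted p of the 40 genes in this comparison. The spread behind that value was estimated over all 27 arrays. Manf, a secreted ER stress protein with trophic effects on beta cells, was 9.26, 9.48 and 9.72 against 8.14, 8.03 and 8.02. It fell by 1.42 (SE 0.30, adjusted p = 0.00337), again without overlap. Dnajb11, a co-chaperone of BiP, was 8.37, 7.60 and 8.43 against 7.24, 6.84 and 7.66, and its fall of 0.89 (SE 0.29, adjusted p = 0.0455) is one in which the groups overlapped.

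Hspa5 and Hsp90b1, the chaperones with the brightest probe sets, were not called. Hspa5 was 9.85, 10.76 and 10.93 in untreated islets and 9.81, 9.96 and 10.39 at 21 days, a difference of -0.46 (SE 0.30, adjusted p = 0.334). Hsp90b1, the ER member of the HSP90 family (GRP94), was 10.62, 11.50 and 11.56 against 10.72, 10.59 and 11.05, a difference of -0.44 (SE 0.23, adjusted p = 0.204). In both genes untreated replicate 1 lay within the 21-day range while the other untreated arrays lay above it. The lectin chaperones Canx and Calr differed by 0.20 and 0.03. Among the 8 genes with an ERSE match, 3 (Creld2, Ero1b and Pdia6) fell at 21 days, against 5 of the 26 genes with a window and no match.

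Of the disulfide genes, Ero1b went from 11.89, 12.00 and 12.33 to 10.54, 10.17 and 10.29. It fell by 1.74 (SE 0.19, adjusted p = 7.89e-06), 3.34-fold; its probe set is of a type that can match more than 1 transcript. Pdia6, an isomerase that also acts on the IRE1 sensor, went from 8.65, 9.0 and 9.40 to 7.91, 7.84 and 8.19, a fall of 1.04 (SE 0.29, adjusted p = 0.0189). Selenof, a selenoprotein that binds the glycoprotein folding sensor, was the gene that rose, from 9.85, 10.49 and 10.73 to between 10.95 and 11.11 on the 3 arrays, by 0.66 (SE 0.20, adjusted p = 0.0263). Its lowest untreated value came from replicate 1, without which the difference was 0.41 and no longer called (adjusted p = 0.162). The related oxidase Ero1a was 8.35, 9.12 and 9.34 against 9.14, 9.09 and 9.10.

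Sec61a1, the pore of the translocation channel, went from 12.51, 11.85 and 12.32 to 11.25, 10.94 and 11.27, a fall of 1.07 (SE 0.21, adjusted p = 0.00192). A second Sec61a1 probe set fell by 1.02 (adjusted p = 0.00323). Of the degradation genes, Derl2 went from 6.59, 6.68 and 6.72 to 5.70, 5.71 and 5.91, a fall of 0.89 (SE 0.17, adjusted p = 0.00172). Vcp, the ATPase that extracts proteins from the ER membrane, went from 11.31, 10.92 and 11.41 to 10.46, 10.29 and 10.23, also a fall of 0.89 (SE 0.19, adjusted p = 0.00342). None of these 3 genes overlapped between the groups, which is no separate support, as the calls came from the same arrays. For Vcp, however, the 3 dimmer probe sets differed by 0.10, 0.02 and -0.13 and were not called, and a second Derl2 probe set differed by -0.12. All 6 degradation genes lay below their untreated mean, with a median of -0.48.

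Most of the 21-day declines did not rest on 1 array. Xbp1, Creld2, Ero1b, Manf, Nupr1, Sec61a1, Derl2 and Vcp kept their call in all 6 fits without 1 array; Pdia6 held in 3, Selenof in 2 and Dnajb11 in 2. Acinar genes were lower at 21 days too, with a median of -1.95 over 15 genes and 0 called, and 3 of 6 beta cell genes fell (median -0.89, Slc2a2 from a mean of 10.52 to 8.89 Pdx1 from 7.06 to 6.05, and G6pc2). With acinar and leukocyte means as covariates, Xbp1 fell by 1.82 (adjusted p = 0.000399), Creld2 by 2.25 (adjusted p = 5.97e-06), Ero1b by 1.83 (adjusted p = 8.27e-06) and Manf by 1.43 (adjusted p = 0.00661). In that fit 11 of the 40 genes were called, 9 lower and 2 higher. Whether the beta cell genes' decline has a part in the result was not tested.

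Set against 24 h instead, the 21-day islets showed 20 of 40 genes lower and 2 higher (55% called against 21.8% of all genes, 11.4% higher and 10.4% lower), with a median of -0.39 against 0.06. Nupr1 fell by 3.84, Creld2 by 2.99, Xbp1 by 2.01, Manf by 1.97, Dnajb11 by 1.27, Pdia6 by 1.20 and Dnajc3 by 1.15, and Hspa5 by 0.92 (adjusted p = 0.0361). Sec61a2, a second form of the pore, and Trib3 rose by 0.82 and 0.46. Here 13 of 15 acinar genes fell as well, with a median of -4.39. With the acinar and leukocyte covariates 4 genes were called, Creld2 (-2.79, adjusted p = 0.00022), Xbp1 (-1.85, adjusted p = 0.0307) and Ero1b (-1.12, adjusted p = 0.0418) among them. In that fit Nupr1 was at -0.83 (adjusted p = 0.265), Sec61a2 at 0.12 (adjusted p = 0.876) and Edem1 at -0.37 (adjusted p = 0.492). Without the covariates Edem1 was at -1.12. Some lost calls shrank less, such as Dnajb11 at -0.92 and Pdia6 at -0.98. Others were lost with changes of about the same size or larger, such as Manf at -1.79 (adjusted p = 0.0618), Hspa5 at -1.47 (adjusted p = 0.104) and Hsp90b1 at -1.34 (adjusted p = 0.0687). The Gapdh 3' minus 5' difference, a sign of RNA quality, was 3.70 to 3.90 at 24 h and 4.77 to 4.92 at 21 days, and with it as a covariate 16 genes were called.

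Withdrawal of the drug asked whether the decline reverses. At 2 days off, 0 of 40 genes were called against 21 days by limma (13 higher and 1 lower at an unadjusted p under 0.05, against 16.6% of all genes), where 0.17% of all genes were (0.158% higher and 0.0121% lower). At 4 days off, 13 of 40 genes rose and 1 fell, 35% against 6.91% of all genes (4.52% higher and 2.39% lower). The median change was 0.36 against -0.06 over all genes, with 30 genes above 0. The genes that rose were Xbp1 and Atf6 among regulators, 6 of 10 chaperones and co-chaperones (Hspa5, Hsp90b1, Manf, Creld2, Dnajb11 and Dnajc3), Pdia6 and Ero1b, Sec61b and Ssr2, and Derl2.

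Hspa5 went from 9.81, 9.96 and 10.39 at 21 days to 11.62, 11.34 and 11.36 at 4 days off. Every array off the drug lay above every 21-day array, a rise of 1.39 (SE 0.30, adjusted p = 0.0166). Hsp90b1 went from 10.72, 10.59 and 11.05 to 12.00, 11.75 and 11.80, without overlap, a rise of 1.06 (SE 0.23, adjusted p = 0.0154). Manf went from 8.14, 8.03 and 8.02 to 9.91, 9.20 and 9.43, a rise of 1.45 (SE 0.30, adjusted p = 0.0143). Creld2 went from 6.45, 6.51 and 6.31 to 7.96, 7.14 and 7.72, a rise of 1.18 (SE 0.20, adjusted p = 0.00846) that left it below all untreated arrays. Dnajc3, the co-chaperone p58IPK, went from 7.14, 7.06 and 7.06 to 8.27, 8.08 and 8.51, and Dnajb11 from 7.24, 6.84 and 7.66 to 8.82, 8.40 and 8.13; each rose by 1.20.

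Xbp1 went from 7.99, 7.72 and 8.02 to 9.27, 9.19 and 9.26, a rise of 1.33 (SE 0.24, adjusted p = 0.00846). The 3 arrays off the drug lie close together, between the 21-day and the untreated arrays. Atf6 went from 7.89, 7.56 and 8.14 to 8.99, 8.74 and 8.40, a rise of 0.85 (SE 0.25, adjusted p = 0.0471). Trib3, a pseudokinase downstream of CHOP, was 6.93, 6.71 and 6.98 at 21 days and 6.40, 6.51 and 6.46 at 4 days off, a fall of 0.42 (adjusted p = 0.0247). Ddit3 was 8.23, 8.04 and 8.49 against 7.94, 7.96 and 7.99, a difference of -0.29 (SE 0.24), and Atf4 differed by 0.31 (SE 0.13, adjusted p = 0.139); neither was called.

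Pdia6 went from 7.91, 7.84 and 8.19 to 9.56, 9.11 and 9.30, a rise of 1.34 (SE 0.29, adjusted p = 0.0154). Ero1b rose by 0.86 (adjusted p = 0.0163), to 11.15, 11.32 and 11.12. Of the translocation genes, Sec61b went from 7.55, 7.32 and 7.73 to 8.75, 8.21 and 8.73, a rise of 1.03 (SE 0.20, adjusted p = 0.0101). Ssr2, a subunit of the translocon-associated complex, went from 9.15, 8.65 and 9.20 to 9.88, 9.81 and 9.88, a rise of 0.86 (adjusted p = 0.0309). Derl2 rose by 0.87 (adjusted p = 0.0113), to 6.67, 6.71 and 6.56. None of these 5 genes overlapped between 21 days and 4 days off, which is no separate support, as the calls came from the same arrays.

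Of the 8 genes with an ERSE match, 6 rose at 4 days off, with a median of 1.12; of the 26 with a window and no match, 4 rose and 1 fell, with a median of 0.26; and of the 6 without a window 3 rose. The exceptions among the 8 were Canx (-0.35, adjusted p = 0.0646) and Calr (-0.01), whose probe set is near the level of the bacterial controls. The dimmer of 2 Canx probe sets went the other way, from a mean of 6.76 at 21 days to 7.41 at 4 days off. Nupr1 and Herpud1 differed by 0.18 and 0.17 at this step, neither called. Acinar genes differed by a median of 0.21 with 0 of 15 called, and leukocyte genes by -0.15 with 0 of 36 called. Beta cell genes lay above 0 in 6 of 6, with a median of 0.62 and 0 called, and their part in the result was not tested. The Gapdh 3' minus 5' difference was 4.77 to 4.92 at 21 days and 3.46 to 4.06 at 4 days off, without overlap; with it as a covariate 12 genes were called. With the acinar and leukocyte means as covariates 15 genes were called, with Hspa5 at 1.40 (adjusted p = 0.0119) and Xbp1 at 1.31 (adjusted p = 0.00922).

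The 4-day rise depended on which arrays were kept. Without replicate 1 of 4 days off, 0 of 40 genes were called, with Xbp1 and Creld2 both at an adjusted p of 0.0659, Hspa5 and Manf at 0.0901, and 1 of 12422 probe sets was called in all against 746. Without 21-day replicate 2, 3 genes were called and 43 probe sets in all, and without 21-day replicate 1, 6 genes and 154 probe sets; the other 3 fits gave 10 to 15 genes. Changes themselves moved little: over the 6 fits Hspa5 ranged from 1.27 to 1.56, Manf from 1.25 to 1.61 and Xbp1 from 1.24 to 1.39.

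**Figure D4:**
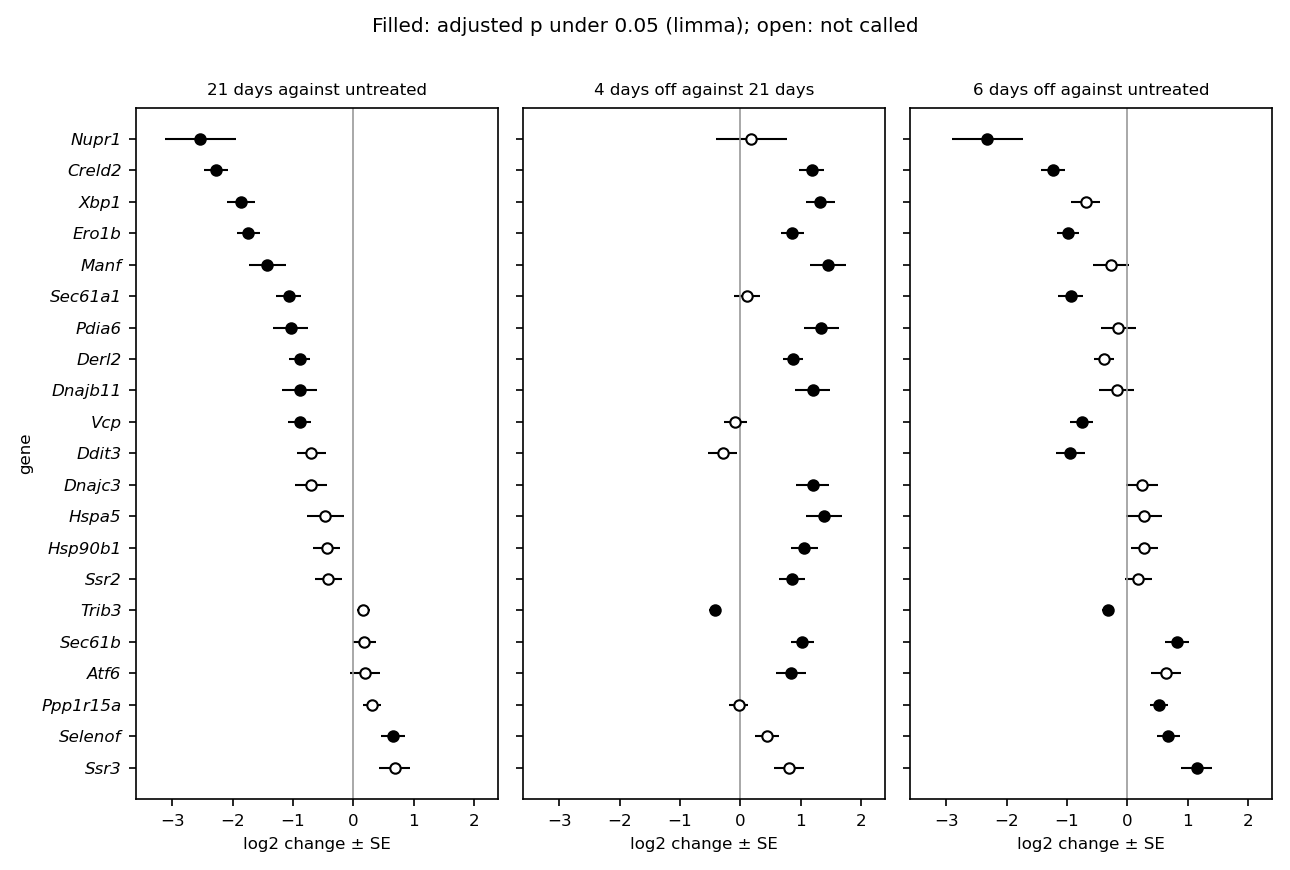
Log2 change with its standard error for the 21 genes called in at least 1 of 3 comparisons: 21 days against untreated, 4 days off against 21 days, and 6 days off against untreated; filled points had an adjusted p under 0.05. Xbp1, Manf, Pdia6 and Derl2 fall at 21 days and rise at 4 days off, while Nupr1 falls at 21 days (-2.54) and stays at -2.32 against untreated at 6 days off.

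At 6 days off the drug, compared with 21 days, Xbp1 (1.17, adjusted p = 0.0381) and Creld2 (1.05, adjusted p = 0.0324) were higher and Trib3 (-0.49, adjusted p = 0.0381) was lower, 3 of 40 genes against 0.339% of all genes (0.121% higher and 0.218% lower). Xbp1 was 8.74, 9.14 and 9.36 and Creld2 7.27, 7.49 and 7.65, above all 21-day arrays. Each of these 3 calls held in 1 of 6 fits without 1 array. Hspa5 was 10.04, 10.84 and 11.49 and Manf 8.66, 9.07 and 9.91, a wide spread in which replicate 1, the array with the highest leukocyte mean (8.88), was lowest. No gene was called by limma between 2 and 4 or between 4 and 6 days off, in this set or over all 8251 genes, so the order of the days off was not resolved. At an unadjusted p under 0.05, 11 of the 40 were higher at 4 than at 2 days off and 0 lower (5.77% of all genes), and 1 was higher and 6 lower at 6 than at 4 days off (19.4% of all genes).

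Against untreated islets, several genes were displaced at 6 days off: 7 of 40 genes were lower and 4 higher, 27.5% against 13.5% of all genes (7.95% lower and 5.56% higher). Nupr1 was 7.58, 6.40 and 7.45 against 10.90, 8.55 and 8.95 untreated, lower by a log2 change of -2.32 (SE 0.59, adjusted p = 0.0127), or -1.61 (adjusted p = 0.0978) without untreated replicate 1. Creld2 was still lower (-1.23, adjusted p = 0.000763), as were Ero1b (-0.98, adjusted p = 0.00199), Sec61a1 (-0.94, adjusted p = 0.00603) and Vcp (-0.76, adjusted p = 0.0114). Ddit3 was 7.94, 7.96 and 8.11 against 9.31, 8.76 and 8.78 (-0.95, adjusted p = 0.0123), and Trib3 was lower by a change of -0.32 (adjusted p = 0.0433). Without untreated replicate 1, Ddit3 (adjusted p = 0.0794), Trib3 (adjusted p = 0.25) and Vcp were no longer called. Vcp was also lost without replicate 1 of 6 days off (adjusted p = 0.0762). The Trib3 call held in 1 of 6 fits without 1 array.

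The genes above untreated at 6 days off were Ssr3, Sec61b, Selenof and Ppp1r15a. Ssr3, another subunit of the translocon-associated complex, was 9.91, 10.18 and 10.46 against 8.31, 9.51 and 9.28 untreated. It was higher by 1.15 (SE 0.25, adjusted p = 0.0052), without overlap, and by 0.79 (adjusted p = 0.0392) without untreated replicate 1, its lowest array. The Ssr3 call held when its 3 probe sets were averaged, but not when only the 6 arrays compared were fitted. Its 2 dimmer probe sets were not called at 21 days, where the brighter one was not called either. That does not bear on their agreement at 6 days off. Sec61b was 8.06, 8.30 and 8.17 against 7.13, 7.61 and 7.31 (0.83, adjusted p = 0.00861), and was not called without untreated replicate 1 (adjusted p = 0.0524). Ppp1r15a, the phosphatase subunit that restores translation, was 9.35, 8.79 and 8.80 against 8.77, 8.30 and 8.29 (0.53, adjusted p = 0.028). Its highest array was the leukocyte-rich replicate 1 of 6 days off, without which it was not called (adjusted p = 0.17). Selenof was higher by 0.68 (adjusted p = 0.0266), and by 0.43 without untreated replicate 1 (adjusted p = 0.181) or 0.53 with the covariates (adjusted p = 0.146), neither called.

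Xbp1 at 6 days off lay below all untreated arrays, by a mean change of -0.69 that missed the threshold (adjusted p = 0.0639), and Hspa5, Hsp90b1 and Dnajc3 were at 0.28, 0.28 and 0.24 above untreated, none called. Without untreated replicate 1, 5 of 40 genes were called, and with the covariates 6 (3 higher and 3 lower). Leukocyte genes had a median of 0.49 above untreated and plasma cell genes, whose cells are rich in ER, a median of 0.82, with 0 of 36 and 0 of 6 called; the plasma cell mean was 7.12 to 8.53 at 6 days off against 6.33 to 7.69 untreated. The part of plasma cells in the result was not tested.

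Comparisons of the earlier days off with untreated islets, added after the data had been seen, gave further values. At 4 days off, 10 of 40 genes were higher and 8 lower, where 26.5% of all genes were called (14.1% higher and 12.3% lower). Ssr3 was higher by 1.50, Pdia3 by 1.27, Sec61b by 1.21, Selenof by 1.11, Atf6 by 1.05, Hspa5 by 0.93 and Eif2ak3 by 0.91. Eif2ak3 was 7.31, 7.35 and 7.45 at 4 days off against 6.52, 6.23 and 6.62 untreated, without overlap. Nupr1 (-2.35), Creld2 (-1.09), Ddit3 (-0.99), Vcp (-0.97), Sec61a1 (-0.96) and Ero1b (-0.88) were lower. Without untreated replicate 1, 11 genes were called at 4 days off in place of 18: Hspa5 was then at 0.595 (adjusted p = 0.206), Pdia3 at 1.09 (adjusted p = 0.0603) and Nupr1 at -1.64 (adjusted p = 0.0564), while Ssr3, Sec61b, Selenof, Atf6 and Eif2ak3 were called in all 6 fits without 1 array. At 2 days off, 6 genes were higher and 10 lower, where 23.2% of all genes were called (11.7% higher and 11.5% lower). Those 16 calls became 9 without untreated replicate 1, 9 with the acinar and leukocyte covariates, 9 with the Gapdh covariate and 5 when only those 6 arrays were fitted.

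Of the 40 genes, 14 had more than 1 probe set, and these did not always move together. The brighter Dnajb9 probe set, for a co-chaperone of BiP, differed by -0.40 at 21 days and was not called, while the dimmer one rose by 0.55 (adjusted p = 0.00725). For Dnajc3, whose brightest probe set rose by 1.20 at 4 days off, the other 3 differed by 0.03, 0.14 and -0.09 and were not called. The other Pdia6 probe sets differed by 0.90 (adjusted p = 0.0805) and 0.17 at that step. A second Selenof probe set rose by 1.46 at 4 days off (adjusted p = 0.0247), where the brighter one differed by 0.44 (adjusted p = 0.146). When the probe sets of each gene were averaged, 9 genes were called at 21 days against untreated, Vcp and Selenof being lost, and at 4 days off against 21 days Dnajc3 was lost.

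Genes of the same pathways outside the 40 were taken from 6 lists with 138 measured members. At 21 days 26 of them fell and 9 rose against untreated, where 8.46% of all genes fell and 7.95% rose. The median over the 138 was -0.12. The counts of the single lists below are to be read beside the same shares. Of 24 further chaperones, oxidoreductases and isomerases 6 fell and 0 rose, led by Dnajb2 (-1.74), the prolyl isomerase Fkbp11 (-1.67) and Sumf1 (-1.15). In N-glycosylation 4 of 22 fell, among them Dad1 (-0.81), a subunit of the oligosaccharyltransferase, and Uggt1 (-0.74), the folding sensor of glycoproteins, and 1 rose, Dpm1 (0.80). In signal recognition and membrane insertion 3 of 22 fell (Srp68, Serp1 and Srpr, at -0.70, -0.66 and -0.61). Of 37 genes of the integrated stress response 6 fell and 4 rose, with Atf3 at 1.31, Nars at -1.15 and Vegfa at -1.13. Of 17 further degradation genes 4 fell and 2 rose (Ube2g1 at 1.20), and of 16 sensors and transducers 3 fell, among them the calcium channel Itpr2 (-1.46) and the pump Atp2a3 (-1.45), and 2 rose.

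At 4 days off, 17 of the 138 rose against 21 days and 3 fell, where 4.52% of all genes rose and 2.39% fell. The median over the 138 was 0.18. Those of the 138 that rose included Serp1 (0.91), which stabilises membrane proteins during ER stress, the signal recognition subunit Srp14 (0.86) and the oligosaccharyltransferase subunit Ostc (0.84). Others were the cargo receptor Lman1 (0.75), Dnajb2 (0.79), the calcium pump Atp2a2 (1.11) and Wfs1 (0.92), an ER membrane protein of beta cells. Ddit4, a stress-induced inhibitor of mTOR signalling, fell by 1.05. At 6 days off against untreated, 20 of the 138 were lower and 10 higher, where 7.95% of all genes were lower and 5.56% higher. In the first day few were called. At 24 h 4 rose and 0 fell, where 1.37% of all genes rose and 0.206% fell. Those 4 were the ER peroxiredoxin Prdx4 (1.24, adjusted p = 0.00286), the isomerase Ppib (0.88, adjusted p = 0.03), the serine synthesis enzyme Psat1 (1.93) and Eif4ebp1 (0.72), an inhibitor of translation initiation.

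Ranked by Pearson correlation of the 9 group means with Xbp1, as a description over groups that share the same arrays, the closest of the 40 genes were Manf (0.935), Creld2 (0.909), Pdia6 (0.847), Ero1b (0.842) and Nupr1 (0.780). Canx, on its brighter probe set, was the farthest, at -0.764. Outside the set the closest were Ctnna1 (0.966), Ik (0.962), Commd7 (0.958), Nme2 (0.953) and Tmem50b (0.952), each above the closest of the 40. They were picked from a far larger pool of genes, in which higher maxima arise more readily. No conclusion is drawn from that difference.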

How the data were processed

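Affymetrix MG-U74Av2 arrays of laser-captured islets were deposited as 1 table of log2 values, summarised by RMA per the submitters' processing notes; which version of RMA was run, and how, is not given in the sources used here. The deposited log2 values were used without further normalization. Of 12488 probe sets, 66 control probe sets were left out and 12422 tested. The platform annotation gave 10833 probe sets 1 gene symbol, 396 several and 1193 none; only the first were named, and counts use the highest-mean probe set of each of 8251 genes. Groups come from the sample titles. A model of 9 group means over 27 arrays (18 residual degrees of freedom) was fitted with limma 3.58.1 in R 4.3.3 (lmFit, eBayes), two-sided, with Benjamini-Hochberg adjustment over all 12422 probe sets of a comparison and a call at an adjusted p under 0.05. The fit was tested on simulated data. With 3 arrays per group, precision is limited by their number.

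Every one of the 40 genes could be named; of the 6 lists of related genes, the called genes with the largest change were named, at most 3 per list and comparison; and the 5 members and 5 other genes most like Xbp1. The members and all lists were chosen with earlier results of these data known. Marker lists had 15 acinar, 36 leukocyte, 6 plasma cell, 6 beta cell, 4 alpha and delta cell, 5 duct, 7 endothelial and 7 stromal genes measured. At 21 days against untreated, 0 alpha and delta, 0 duct and 0 stromal genes were called, and 1 endothelial gene was higher and 1 lower. Alternatives were quantile normalization, leaving out the 40% dimmest probe sets, eBayes with trend and robust settings, fits of the 6 arrays compared, a replicate block, averaging the probe sets of a gene and leaving out each array. Added after seeing the data were acinar and leukocyte covariates, leaving out leukocyte-rich arrays (marker mean over 0.5 above the average), the Gapdh 3' minus 5' difference as a covariate, and 6 further comparisons. Promoter windows are those of RefSeq on GRCm38.p6, matched by symbol.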

Additional observations from a re-analysis of the deposited data

Results flagged for a closer look

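Changes against untreated islets differed between 8 h and 4 h for 2 of the 40 genes and between 24 h and 4 h for 11. Over all genes the shares called were 0.0242% and 3.25%. Other pairs of first-day times were not compared. The differences were tested in the same limma fit, in comparisons added after the data had been seen, and both changes share the untreated arrays. Between 8 h and 4 h the changes of Creld2 differed by 1.20 (adjusted p = 0.0372) and those of Herpud1 by 1.0 (adjusted p = 0.0249). Between 24 h and 4 h they differed by 1.54 for Creld2 (adjusted p = 0.000337), 1.28 for Hspa5 (adjusted p = 0.0234), 1.12 for Manf (adjusted p = 0.0465) and 1.11 for Dnajb11 (adjusted p = 0.0416). The differences were 0.99 for Edem1 (adjusted p = 0.0205), 0.92 for Hsp90b1 (adjusted p = 0.0278), 0.92 for Herpud1 (adjusted p = 0.00213) and 0.91 for Ddit3 (adjusted p = 0.0388). For Sec61b it was 0.86 (adjusted p = 0.0179), for Derl2 0.83 (adjusted p = 0.0101) and for Sel1l 0.56 (adjusted p = 0.0168). Leaving out 4 h replicate 2, the lowest array of that time for Hspa5, Hsp90b1 and Manf, gave adjusted p values of 0.152 for Hspa5, 0.155 for Hsp90b1, 0.235 for Manf, 0.00479 for Creld2 and 0.0208 for Herpud1.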

How the results depend on the processing

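Of 65 called results for single genes in the 10 comparisons, 27 were called in every fit without 1 array, 11 in every fit of any setting, and 0 reversed direction. Leaving out 1 array in turn gave 0 to 0 genes called at 2 h, 0 to 1 at 4 h, 8 h and 24 h, 8 to 13 at 21 days against untreated, 15 to 21 at 21 days against 24 h, 0 to 2 at 2 days off and 0 to 15 at 4 days off against 21 days, 0 to 2 at 6 days off against 21 days and 5 to 10 against untreated. Fits of the 6 arrays compared called 0 genes at 4 h, 8 h and 24 h, 0 at 6 days off against 21 days and 1 against untreated. With acinar and leukocyte covariates the counts were 2 at 4 h, 0 at 8 h, 0 at 24 h, 4 at 21 days against 24 h and 6 at 6 days off against untreated. Without leukocyte-rich arrays they were 2 at 4 h, 0 at 8 h and 1 at 6 days off against 21 days. Quantile normalization gave 2 at 4 h; trend and robust settings gave 0 at 8 h and 1 at 24 h; the Gapdh covariate gave 1 at 24 h and 0 at 6 days off against 21 days. With a replicate block the counts were 0, 1, 1 and 2 at 2, 4, 8 and 24 h, 13 at 21 days against untreated, 22 against 24 h, 0, 14 and 3 at 2, 4 and 6 days off against 21 days, and 11 at 6 days off against untreated. At 24 h this block lost Sel1l and called another gene lower, so 1 of the reported calls was kept. Averaging probe sets gave 9 at 21 days against untreated, 20 against 24 h and 14 at 4 days off. The labels do not say whether equal replicate numbers pair the samples. Correlations of same-numbered arrays ran from -0.234 to 0.361, which does not settle it. The cause of these shifts was not tested. With 3 arrays per group, changes that are small beside the standard errors could not be resolved, and levels of the 8 dimmest genes lie within the range of the control probe sets.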
